A study of Macaca mulatta with 449 samples.

Results

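The metabotropic glutamate receptors are receptors for the transmitter glutamate that act through G proteins rather than by opening an ion channel themselves. The genes described here were chosen by symbol alone, as GRM2, GRM3, GRM4, GRM5, GRM6, GRM7 and GRM8, and all 7 were found, each once, among the 30807 genes of the count table. RNA of 51 brain sub-regions of 8 healthy rhesus macaques was sequenced after ribosomal RNA had been removed, with 1 sample of every sub-region from every animal. The animals carried no treatment or engineered allele. Rhesus 7 and 8 were young males (4.0 and 3.8 years), Rhesus 4 and 10 young females (3.2 and 5.0 years), Rhesus 2 and 3 mid-aged males (10.0 years each) and Rhesus 6 and 11 mid-aged females (10.0 and 9.8 years). By the study's methods, the monkeys came from a single source, lived outdoors in a group and were dissected by 1 anatomist.

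By textbook knowledge the family falls into 3 groups. Group I, to which GRM5 belongs, couples to Gq, phospholipase C and release of calcium, and sits mostly at the edge of the postsynaptic density, tethered by Homer proteins. Group II (GRM2 and GRM3) and group III (GRM4, GRM6, GRM7 and GRM8) couple to Gi/o proteins, lower cyclic AMP and often restrain transmitter release, with GRM3 also made by glial cells and GRM6 known chiefly from the ON bipolar cells of the retina.

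Sub-regions were combined within each animal into 16 region groups, of which the neocortex, with 31 sub-regions and the most samples, was the common reference. A neocortical value is therefore a single value per animal over all 31 sub-regions, unless a lobe or sub-region is named. The groups are written as AMY (amygdala), CB (cerebellum), CC (corpus callosum), GP (globus pallidus), HIP (hippocampus), HTHA (hypothalamus), MO (medulla oblongata), OB (olfactory bulb), PA (entorhinal and perirhinal cortex), PIT (pituitary), PON (pons), SN (substantia nigra), STR (striatum), THA (thalamus) and VTA (ventral tegmental area). Levels are given as CPM, read counts scaled to a common library size after adjustment of the library sizes with the TMM method. As the files give no gene lengths, levels were compared between regions within a gene, never between genes. A gene was called in a comparison at an FDR (Benjamini-Hochberg adjusted p of the edgeR quasi-likelihood test over all genes tested) below 0.05 and an absolute log2 fold change above 1. All samples are bulk tissue, in which fewer cells of a type and less RNA per cell cannot be told apart.

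A sample held 7784678 to 31083490 gene counts (median 10698602). Not every marker list for a single structure peaked in the structure it marks. Granule cell markers of the cerebellum peaked in CB (3468 to 4215 CPM against a median of 246 in PON), medium spiny neuron markers in STR (2753 to 3478) and dopamine neuron markers in SN (4846 to 9389). The same dopamine markers reached 196.6 to 1095 CPM in VTA, and dentate granule markers had a higher median in AMY (576.5) than in HIP (506.3). The 3 olfactory bulb neuron markers used were SP8, DLX6 and TH, and TH is also on the dopamine neuron list. Their sum peaked in SN (median 1469 CPM) and not in OB (213.5). Markers of cortical excitatory neurons had a higher median in HIP (1842) than in the neocortex (1116). By such marker sums, 3 libraries were taken as standing apart from the rest of their group. Neuron markers summed to 367.7 CPM in the MO of Rhesus 6 against 5396 to 9823 in the other animals, with the highest oligodendrocyte sum of that group (91290). Markers of cortical excitatory neurons summed to 658.4 CPM in the HTHA of Rhesus 6 against 11.83 to 18.56, and medium spiny neuron markers to 540.0 CPM in the GP of Rhesus 3 against 212.4 to 251.8. Results in MO, HTHA and GP are therefore also given without these 3 libraries where a call changed or the value moved most.

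Each receptor had its own regional profile. Highest of the 16 groups by mean were PA for GRM5, the neocortex for GRM2, CC for GRM3, CB for GRM4, HTHA for GRM6, THA for GRM7 and PON for GRM8. This peak was in the same group in 8 of 8 animals for GRM3, GRM4 and GRM8, and in 6 of 8 for GRM6. For GRM2 it was the neocortex in 4 animals, HIP in 3 and PA in 1, and for GRM5 the peak was spread over PA, STR, AMY and THA. GRM7 peaked in PA in 5 animals and in THA in 3. When the 16 groups were ordered by their fitted level in each gene, 17 of 105 neighbouring pairs differed at FDR < 0.05 and 88 did not. Most single steps in the order were thus not resolved by this test. Such a step can still hold in every animal, as for GRM7 in PA above AMY (8 of 8 animals, FDR 0.27). The share of neighbouring pairs that differ over all genes was not counted.

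**Figure D1:**
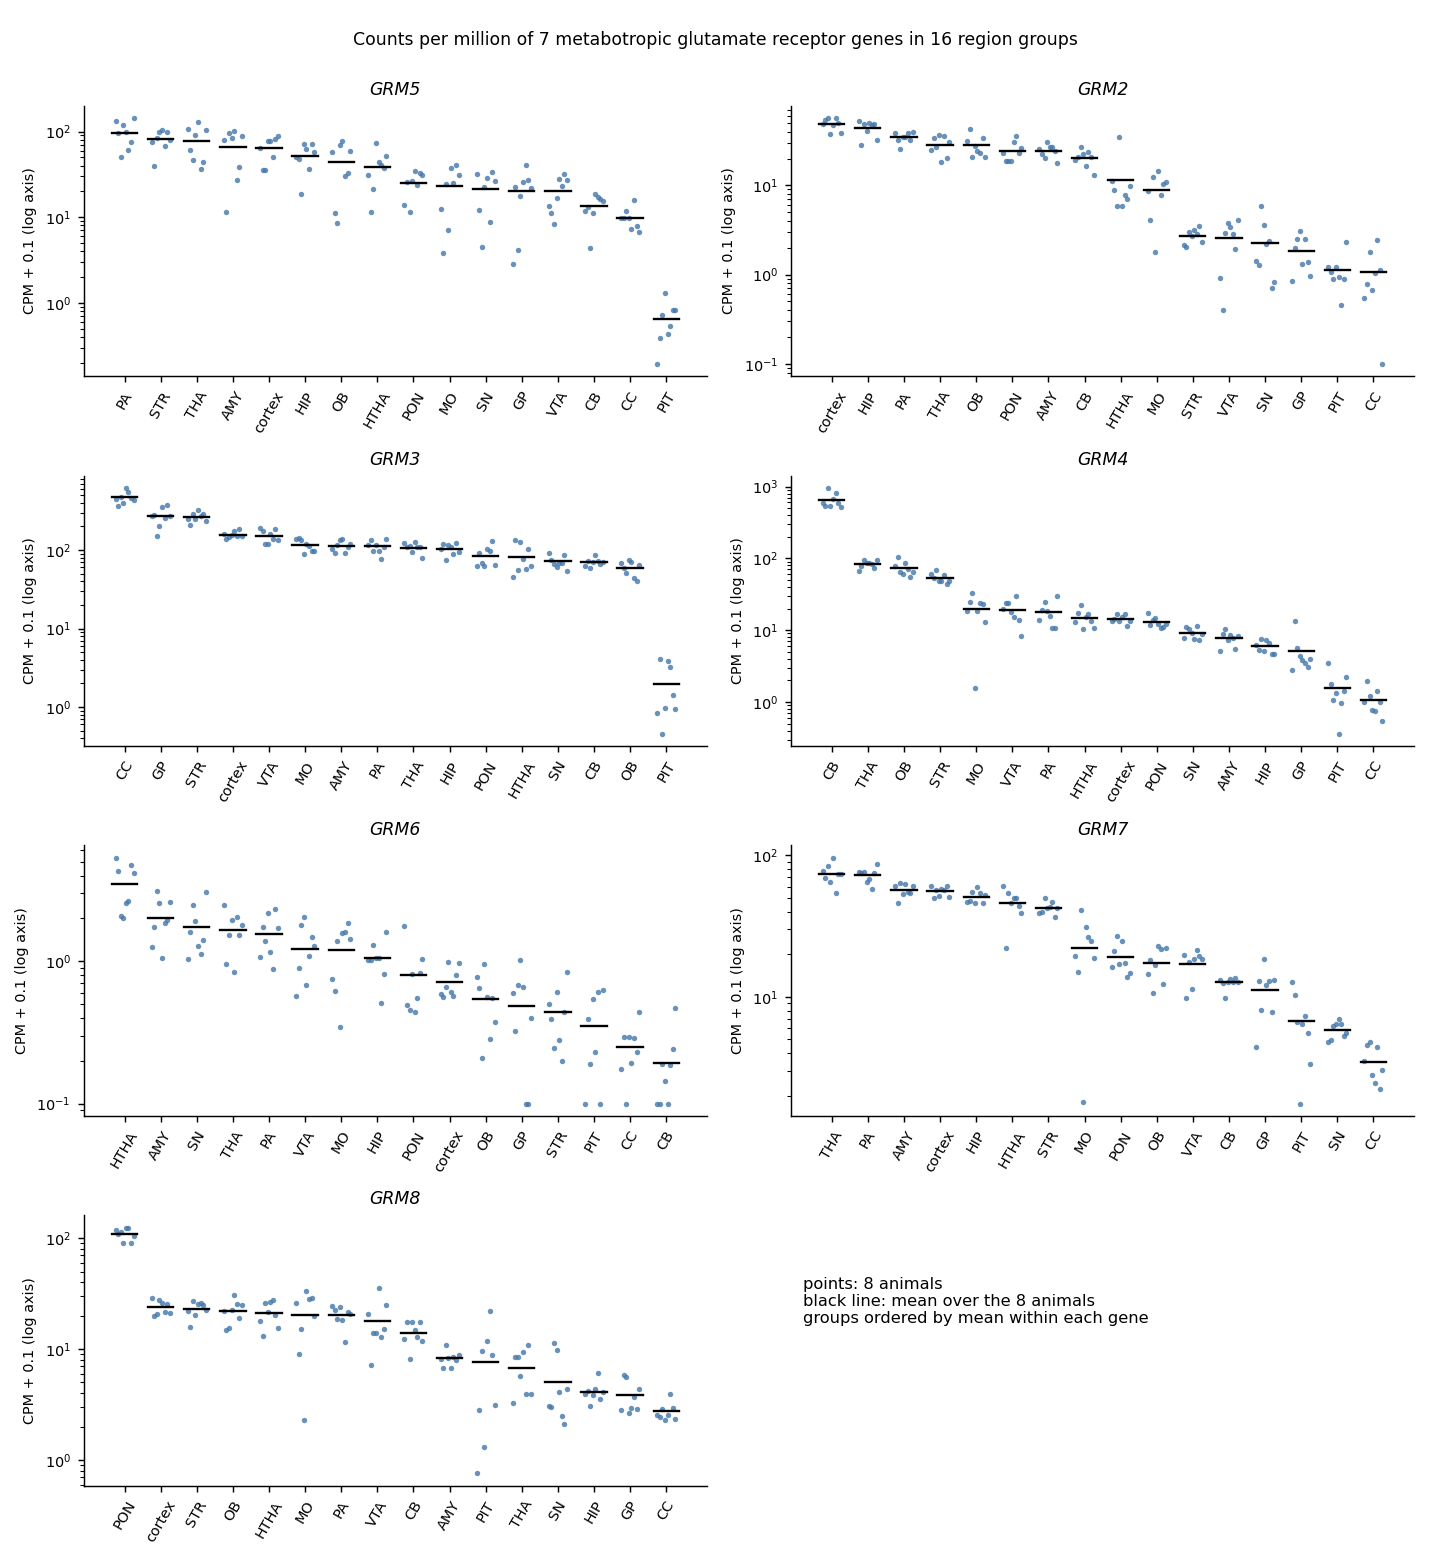
Level of each receptor gene in the 16 region groups, as CPM plus 0.1 on a log axis, with 1 point per animal (8 per group) and a black line at the mean. Groups are ordered by mean within each gene. GRM4 in CB and GRM8 in PON stand clear of every other group, while GRM5 is widely scattered within groups.

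Of 105 pairs of a receptor and a non-cortical group, 57 were called against the neocortex, 46 lower and 11 higher. Of all 256290 gene and group pairs tested, 12.7% were called lower and 11.9% higher. Without the 3 libraries that stood apart the number was again 57, with GRM2 in AMY and PON lost and GRM3 in HTHA and GRM6 in MO gained. GRM2, GRM5 and GRM7 were never called higher than in the neocortex and were called lower in 11, 8 and 9 of 15 groups. By mean, without a call, GRM5 lay above the neocortex in PA, STR, THA and AMY. GRM7 did so in THA, PA and AMY, and in PA its value was higher in 8 of 8 animals. GRM4 was higher in 4 groups and lower in 4, and GRM6 higher in 5 and lower in 3.

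Calls were most complete in tissue with few neuronal cell bodies. All 7 receptors were called in PIT, each lower, where 44.8% of all 17086 genes tested were called. All 7 were called in CC, 6 lower and GRM3 higher, against 44.2% of all genes. The median log2 fold change of the 7 was -3.33 in PIT and -3.18 in CC, beside -0.02 and -0.06 over all genes tested.

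In GP 5 receptors were called, all lower (34.9% of all genes). SN gave 6 calls, 5 lower and GRM6 higher (28%). VTA and MO gave 3 lower calls each, of GRM2, GRM5 and GRM7 in both (28.4% and 28.7%). The same 3 genes were thus lower in every one of these 4 groups. In MO the library of Rhesus 6 held the lowest value of every receptor but GRM5. In the fit without the 3 libraries that stood apart, the log2 fold changes in MO went from -2.48 to -2.27 in GRM2, from -1.47 to -1.27 in GRM5 and from -1.37 to -1.13 in GRM7, all still calls. GRM4 in MO went from 0.41 (FDR 0.063) to 0.66 (FDR 1.3e-04), under the fold threshold both times, and GRM8 from -0.29 to -0.05 (FDR 0.87).

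CB gave 6 calls, with GRM4 higher and GRM2, GRM3, GRM5, GRM6 and GRM7 lower (25.8% of all genes). PON gave 4, with GRM8 higher and GRM2, GRM5 and GRM7 lower (25.2%). OB gave 3, with GRM4 higher and GRM3 and GRM7 lower (22.7%). In these 3 structures a single group III receptor was called higher than in the neocortex while other members were called lower.

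THA gave 3 calls, GRM4 and GRM6 higher and GRM8 lower (19.9%). HTHA gave 2, GRM6 higher and GRM2 lower (18.8%), and STR gave 2, GRM4 higher and GRM2 lower (17.1%). HIP gave 2 lower calls, GRM4 and GRM8 (12.6%), AMY gave 3, GRM6 higher and GRM2 and GRM8 lower (9.79%), and PA gave 1, GRM6 higher (9.02%).

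**Figure D2:**
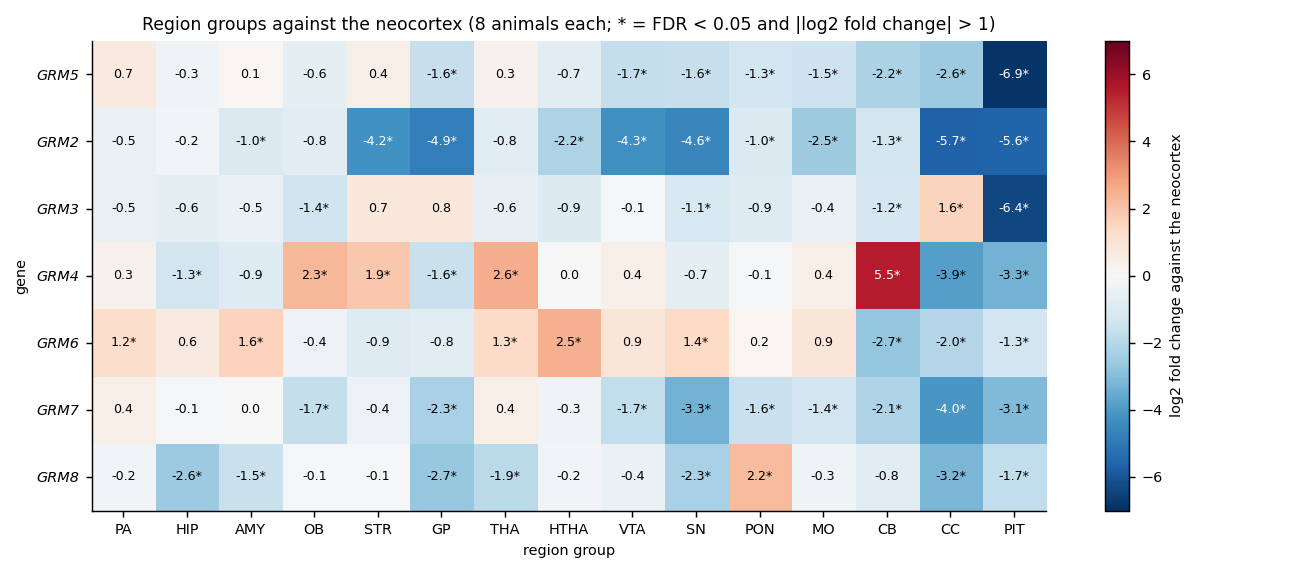
Log2 fold change of each receptor gene (vertical axis, ordered by receptor group) in 15 region groups (horizontal axis) against the neocortex, from the edgeR fit over 8 animals, with red for higher and blue for lower. Asterisks mark an FDR below 0.05 with an absolute log2 fold change above 1, and the darkest cells are GRM4 in CB (red) and GRM5 in PIT (blue).

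GRM5, the group I receptor of this set, was highest by mean in PA, STR and THA and lowest in CB, CC and PIT. It lay between 50.1 and 144 CPM in PA (median 97.8), between 39.6 and 104 in STR (median 82.1) and between 35 and 87.8 in the neocortex (median 71.0). These ranges overlap widely, and no group was called higher than the neocortex. PON (mean 25 CPM), MO (22.8), SN (21), GP (20.3) and VTA (20.0) lay close together below HTHA (38.7), all 5 of them called lower than the neocortex. At the other end, GRM5 lay between 6.56 and 15.6 CPM in CC and between 0.0938 and 1.22 in PIT, where 1 to 11 reads per library were counted. The fall in PIT was the largest among the members (log2 fold change -6.86, SE 0.47, FDR 2.68e-26). In CB the gene lay between 4.24 and 18.6 CPM (log2 fold change -2.21, SE 0.32, FDR 1.97e-09), below the neocortical value of every animal. In the limbic lobe alone, Rhesus 4 was at 14.6 CPM, inside the CB range.

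The spread of GRM5 between animals was wider than that of the other well-measured members. Within a sub-region, the highest of the 8 values of CPM + 1 was in the median 4.69 times the lowest for GRM5, against 1.45 to 2.00 times for GRM2, GRM3, GRM4, GRM7 and GRM8. GRM6 was too low for this ratio, since the added 1 exceeds most of its values. Of the total spread of log2(CPM + 1) over all samples, the sub-region accounted for 59.1% and the animal for 16.1% in GRM5, whereas the sub-region accounted for 92.2% to 94.8% in GRM2, GRM3, GRM4 and GRM7. Over 14771 genes with a mean of at least 1 CPM the medians were 61.7% and 10.4%, so GRM5 was close to the typical gene and these other receptors were well above it. GRM8 (84.9%) and GRM6 (66.7%) lay between.

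Rhesus 4 had the lowest GRM5 value of the 8 animals in 25 sub-regions and Rhesus 3 in 13, together 38 of 51. The widest gap was in the posterior cingular gyrus, 22.2-fold in CPM + 1. Departures of GRM5 from the mean of its sub-region ran most closely with those of SCN8A, a neuronal sodium channel gene, picked as the highest of 14770 genes (Pearson r = 0.95 over all samples, which share animals and dissections). An r above 0.8 was shared with 931 of 14770 genes (6.30%) for GRM5 and with none for GRM2, GRM3, GRM4, GRM7 and GRM8. RNA integrity was not used here, and its part in this spread was not tested.

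**Figure D3:**
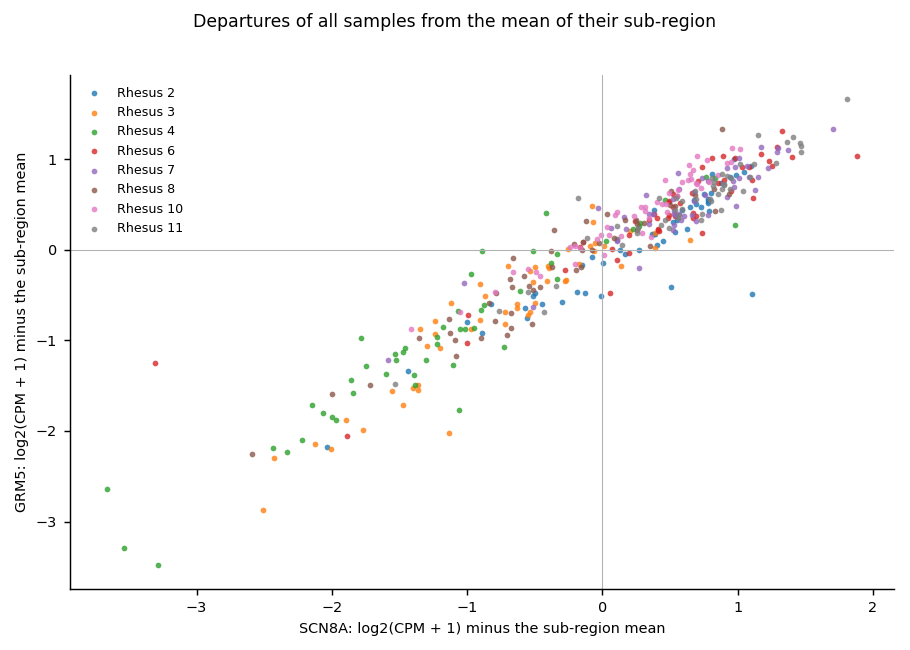
Departure of each sample from the mean of its sub-region, in log2(CPM + 1), for GRM5 (vertical axis) against SCN8A (horizontal axis), coloured by animal. The points lie along 1 line (r = 0.95), with most of the lowest points from Rhesus 3 and Rhesus 4.

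Within the striatum GRM5 separated caudate nucleus from putamen, which the study's own comparison of striatal sub-regions makes a natural contrast. It was the only receptor of the 6 tested that was called there, beside 5.36% of all genes. In the caudate nucleus the 8 animals lay between 79.6 and 154 CPM (median 132), and in the putamen between 22.8 and 75.5 CPM (median 43.1). Every caudate value exceeded every putamen value, and the ratio within an animal ran from 1.94 to 3.55. The log2 fold change was 1.51 (SE 0.26, FDR 2.1e-04). In the same samples the ratio of SCN8A had a median of 1.57 and was above 1 in 6 of 8 animals.

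Other receptors moved less between caudate and putamen. GRM7 was higher in the caudate in 8 of 8 animals (means 44.9 and 25.1 CPM, log2 fold change 0.85, SE 0.12, FDR 1.93e-05), and so was GRM4 (59.0 and 43.6 CPM, 0.44, SE 0.09, FDR 6.5e-04), both under the fold required for a call. GRM3 was at 298 and 295 CPM (log2 fold change 0.00, SE 0.09). Oligodendrocyte markers summed to 3511 to 7923 CPM in the caudate and to 12480 to 21080 in the putamen, and medium spiny neuron markers to 2547 to 3922 and 3079 to 4310. The part of these markers in the GRM5 and GRM7 results was not tested. GRM6 had too few striatal counts to be tested.

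For the accumbens nucleus against caudate and putamen together, no receptor was called by edgeR or by DESeq2, beside 5.92% of all genes, and 4 of the 6 tested had an unadjusted p below 0.05. At FDR < 0.05 but under the fold threshold, GRM2 (log2 fold change 0.86, SE 0.23) and GRM7 (0.68, SE 0.10) were higher in the accumbens and GRM3 (-0.66, SE 0.08) and GRM8 (-0.62, SE 0.11) lower. The shares of all genes at that FDR alone, or at that unadjusted p, were not counted. GRM2 passed the threshold when Rhesus 2 (1.03) or Rhesus 3 (1.01) was left out. GRM3 was lower in the accumbens than in the putamen in 8 of 8 animals, with no overlap. In contrast, GRM5 in the accumbens varied from well above to well below the putamen (ratio 0.61 to 3.74). It exceeded the caudate value in 1 of 8 animals (means 63.3 CPM in the accumbens and 124 in the caudate). Against caudate and putamen together GRM5 did not pass (log2 fold change -0.39, SE 0.23, FDR 0.19).

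**Figure D4:**
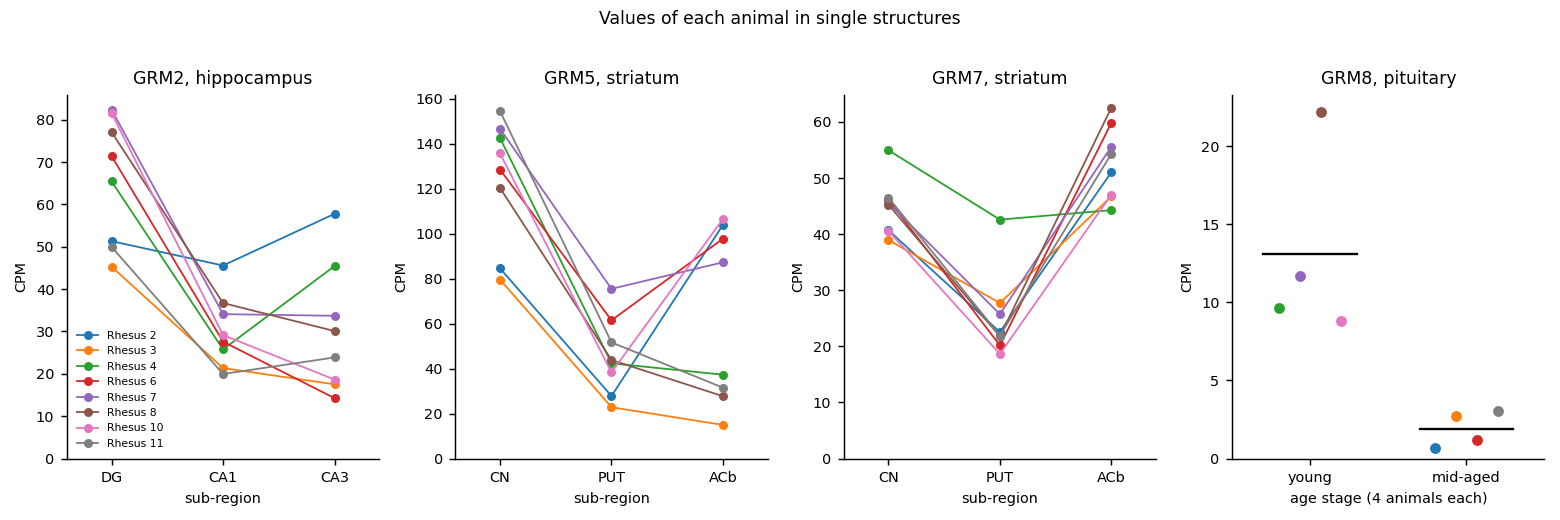
CPM of each animal (1 colour per animal) for GRM2 in 3 hippocampal sub-regions, for GRM5 and GRM7 in 3 striatal sub-regions and for GRM8 in the pituitary by age stage, all axes linear and starting at 0, with lines joining samples of an animal and black bars at the mean of 4 animals. GRM5 falls from the caudate nucleus (CN) to the putamen (PUT) in all 8 animals, and GRM2 is higher in the dentate gyrus (DG) than in CA1 in all 8.

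GRM2, a group II receptor often found on presynaptic terminals, was highest by mean in the neocortex, followed by HIP. It lay between 38 and 56.8 CPM in the neocortex (median 49.4), between 28 and 52.4 in HIP (median 47.9) and between 25.7 and 39.5 in PA (median 34.8). The difference between neocortex and HIP did not pass (log2 fold change of HIP -0.17, SE 0.24, FDR 0.60). A middle tier held THA, OB, PON, AMY and CB, with means of 20.4 to 28.5 CPM, and no neighbouring pair in this tier passed the test.

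Basal ganglia and ventral midbrain held very little GRM2. STR lay between 1.92 and 3.42 CPM, GP between 0.742 and 2.95, SN between 0.615 and 5.75 and VTA between 0.299 and 4.00. Against the neocortex the log2 fold changes were -4.22 in STR (SE 0.29), -4.86 in GP (SE 0.32), -4.56 in SN (SE 0.31) and -4.32 in VTA (SE 0.30), with FDRs from 1.13e-27 to 5.32e-25. The step from MO down to STR was the largest between neighbours for this gene (1.74, SE 0.28, FDR 3.4e-08). CC held 0 to 2.35 CPM, with 1 library at 0.

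In AMY and PON the calls of GRM2 were close to the fold threshold. Its log2 fold change was -1.02 in AMY (SE 0.25) and -1.01 in PON (SE 0.25), and several alternatives put them just inside -1. In HTHA the value was -2.16 with all animals and -2.55 without the library of Rhesus 6, which held 34.4 CPM against 5.77 to 11.2 in the other 7.

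Within the hippocampus GRM2 was the single call between dentate gyrus and the CA fields (CA1 and CA3), beside 3.63% of all genes. The dentate gyrus, whose granule cells send mossy fibres to CA3, lay between 45.3 and 82.4 CPM, with a mean of 65.6 that was the highest of the 51 sub-regions. CA1 lay between 20.0 and 45.6 CPM and CA3 between 14.3 and 57.8. The dentate value was higher than CA1 in 8 of 8 animals and than CA3 in 7 of 8, the exception being Rhesus 2, and the log2 fold change was 1.20 (SE 0.16, FDR 2.8e-05). Dentate granule cell markers summed to 483.4 to 819.5 CPM in the dentate samples, 308.0 to 523.7 in CA1 and 284.1 to 467.0 in CA3, so the dissections overlapped in this sum and differed in its median (686.0, 410.8 and 371.6). Oligodendrocyte markers were lower in the dentate gyrus (1508 to 3106) than in CA1 (3361 to 8627) and CA3 (4030 to 9476), and their part in the GRM2 result was not tested.

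Of the other receptors, 3 were lower in the dentate gyrus at FDR < 0.05 without reaching the fold threshold. The shares of all genes at that FDR alone, or at an unadjusted p below 0.05, were not counted. GRM8 fell short of CA1 and CA3 in 8 of 8 animals each (mean 2.50 CPM against 5.00 and 4.13, log2 fold change -0.84, SE 0.17). GRM3 (-0.26, SE 0.07) and GRM4 (-0.32, SE 0.11) showed smaller differences. Between CA1 and CA3 no receptor was called by edgeR or by DESeq2, beside 0.0194% of all genes, and 1 had an unadjusted p below 0.05. This was GRM3, at 92.0 CPM in CA1 and 124 in CA3, lower in CA1 in 8 of 8 animals (log2 fold change -0.42, SE 0.08, FDR 0.053).

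GRM3, the other group II receptor and the member best known from glia, was the only one that was called higher in white matter. The CC of the 8 animals lay between 364 and 621 CPM (median 453), above every neocortical value (137 to 184). The log2 fold change was 1.58 (SE 0.16, FDR 4.4e-16). GP (152 to 376 CPM) and STR (211 to 325) followed, both with higher levels than the neocortex at FDR < 0.05 but with log2 fold changes of 0.76 (SE 0.16) and 0.75 (SE 0.16), under the threshold. The difference between GP and STR did not pass (FDR 0.97). Oligodendrocyte markers were highest in CC as well (90920 to 119700 CPM), followed by GP (49080 to 104800). Their medians were also high in VTA (53540) and MO (45770), where the GRM3 means (152 and 116 CPM) lay below the neocortex (158). In STR, with GRM3 at a mean of 265 CPM, the oligodendrocyte median was 9045. Astrocyte markers had nearly the same median in CC (6760) and in MO (6878), where GRM3 lay between 88.4 and 141 CPM. The part of both marker lists in the GRM3 result was not tested.

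Of the remaining groups, 8 lay between means of 82.7 CPM (HTHA) and 152 (VTA), and no neighbouring pair in that stretch passed the test. OB was lowest within the brain, at 40.1 to 75.0 CPM (log2 fold change -1.42, SE 0.16, FDR 3.0e-13). PIT lay far below, at 0.356 to 4.00 CPM (log2 fold change -6.37, SE 0.22). GRM2 and GRM3 therefore shared a receptor group but not a profile, with an r of 0.17 between their sub-region means over 51 sub-regions. In HTHA the log2 fold change of GRM3 was -0.95 (SE 0.16) with all animals, not a call, and -1.04 without the library of Rhesus 6, a call.

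GRM4, a group III receptor known from the parallel fibre terminals of cerebellar granule cells, showed the steepest regional difference of the family. CB lay between 526 and 958 CPM (median 597), against 11.3 to 16.8 in the neocortex. The log2 fold change of 5.51 (SE 0.23, FDR 1.1e-42) was the largest rise among the 105 pairs. The next group, THA, lay between 67.4 and 93.9 CPM, and CB was 7.75 times higher than THA in the fit (log2 difference 2.95, SE 0.21). No value of the cerebellum overlapped with any other group.

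OB (54.4 to 105 CPM), THA and STR (43.3 to 67.8) formed the next tier, each above every neocortical value in 8 of 8 animals, with log2 fold changes of 2.35 (SE 0.20), 2.56 (SE 0.20) and 1.90 (SE 0.20). The difference between THA and OB did not pass (FDR 0.35). At the low end stood PIT (0.262 to 3.38 CPM) and CC (0.452 to 1.85). HIP lay between 4.52 and 7.45 CPM (log2 fold change -1.28, SE 0.20). In GP the value was -1.58 (SE 0.22) with all animals and -1.85 without the library of Rhesus 3, which held 13.2 CPM against 2.72 to 5.54.

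Between cerebellar cortex and vermis none of the 6 receptors tested was called by edgeR or DESeq2, beside 0.254% of all genes, and GRM2 alone had an unadjusted p below 0.05. The share of all genes at that unadjusted p was not counted. GRM4 lay between 486 and 1373 CPM in the cerebellar cortex and between 476 and 826 in the vermis (log2 fold change 0.14, SE 0.14, FDR 0.63) and was higher in the cortex in 4 of 8 animals. The value of 1373 CPM was that of Rhesus 4, with the next animal at 748. In that library GRM5 was at 0.879 CPM, against 10.9 to 17.7 in the other animals. It was not among the libraries set aside by their markers. The difference of GRM2 was 0.26 (SE 0.08, FDR 0.25), with a higher value in the cerebellar cortex in 7 of 8 animals. In both parts of the cerebellum all 8 animals were thus far above any GRM4 value outside it.

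GRM6, best known from the dendrites of retinal ON bipolar cells, was barely detected. The median library held 6 of its reads, 27 libraries held none and 124 held 3 or fewer. HTHA gave the highest level, between 1.91 and 5.24 CPM (median 3.31, 19 to 55 reads), against 0.462 to 0.885 in the neocortex. The ranges did not overlap and the log2 fold change was 2.48 (SE 0.29, FDR 1.6e-12), or 2.66 without the library of Rhesus 6.

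AMY (0.956 to 3.02 CPM) and SN (0.943 to 2.96) were also above the neocortical value of every animal, with log2 fold changes of 1.63 (SE 0.30) and 1.38 (SE 0.30). Among single neocortical sub-regions, however, the anterior cingular gyrus had a mean of 1.44 CPM, inside both ranges. THA (1.35, SE 0.30) and PA (1.25, SE 0.30) passed as well, with overlapping ranges. In MO the value was 0.87 (SE 0.31) with all animals and 1.13, a call, without the library of Rhesus 6. The lower calls rest on very few reads, 18 in all in CB, 13 in CC and 22 in PIT over 8 animals each, and their size is imprecise.

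Genes of the ON bipolar cascade, in which GRM6 signals in the retina, were called with it in part. Of the 7 tested, GPR179, a receptor-like scaffold, was higher in HTHA (log2 fold change 1.36) and RGS7, a regulator of Gi/o signalling, lower (-1.13), and the remaining 5 were not called. In THA, where GRM6 was also higher, GPR179 had a larger rise (2.47, FDR 2.6e-11) and GNB3, a G protein subunit, was lower (-1.06). In AMY and PA none was called and in SN 3 were lower, GPR179 included. Over the 15 groups these genes gave 8 higher and 36 lower calls among 105 pairs (7.62% and 34.3%, beside 11.9% and 12.7% of all pairs).

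GRM7, the receptor of the active zone of many terminals, was highest in THA and PA. Its mean ran from 42.5 CPM in STR to 74.2 in THA across THA, PA, AMY, neocortex, HIP, HTHA and STR, and no neighbouring pair in this stretch passed the test. The neocortex lay between 49.5 and 61.1 CPM. OB (10.5 to 22.9 CPM) and GP (4.33 to 18.4) stood well below, with log2 fold changes of -1.68 (SE 0.21) and -2.29 (SE 0.21). MO followed STR in the order, with 1.71 CPM in Rhesus 6 and 14.9 to 40.7 in the other 7 animals.

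CC lay between 2.13 and 4.72 CPM and SN between 4.72 and 6.91, the lowest of the 16 groups, with log2 fold changes of -4.05 (SE 0.24) and -3.28 (SE 0.23). In SN all 8 animals lay below all values of VTA (9.75 to 21.5 CPM), the neighbouring midbrain dissection. CB was nearly constant, between 9.78 and 13.5 CPM.

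GRM8, a further presynaptic group III receptor, peaked in the pons. PON lay between 89.7 and 125 CPM (median 111), against 19.9 to 28.6 in the neocortex, with no overlap. The log2 fold change was 2.19 (SE 0.28, FDR 1.9e-11), and the neocortex was the next group, so that PON was 4.58 times higher than any other. GRM4 and GRM8 were the 2 members that met the rule for enrichment in 1 group, more than 2-fold above each other group, beside 11.8% of all genes.

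From the neocortex to VTA, GRM8 stayed within means of 18 and 23.8 CPM over 7 groups. HIP (2.94 to 5.98 CPM), GP (2.58 to 5.70) and CC (2.21 to 3.86) were lowest, with log2 fold changes of -2.57 (SE 0.29), -2.66 (SE 0.31) and -3.18 (SE 0.32). THA lay between 3.15 and 10.8 CPM (-1.86, SE 0.29), so the thalamus had GRM4 above and GRM8 below the neocortical level. SLC1A2 and SLC1A3, the glial glutamate transporters, were both lower in PON (-2.88 and -2.81), and RGS8, a regulator of G protein signalling, was higher there (1.24).

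Within the neocortex the occipital lobe stood out. Tested against the mean of the other 4 lobes without a fold threshold, 6 of 7 receptors were called, beside 54.8% of 17925 genes tested. GRM4 was higher, and GRM2, GRM3, GRM5, GRM6 and GRM8 were lower. GRM7 did not pass (log2 fold change -0.04, SE 0.04, FDR 0.44).

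GRM4 lay between 21.5 and 34.1 CPM in the occipital lobe (median 25.7) and between 7.64 and 22 in the others, and was higher in the occipital lobe than in each other lobe in 8 of 8 animals. The log2 fold change was 1.20 (SE 0.06, FDR 7.1e-19). The posterior superior occipital gyrus had the highest neocortical mean (31.7 CPM) and the inferior precentral gyrus the lowest (8.93).

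GRM2 ran the other way, with 14.7 to 30.2 CPM in the occipital lobe (median 23.6), 29.4 to 49.6 in the parietal lobe (median 39.3) and 46 to 66.3 in the frontal lobe (median 60.2). It was lower in the occipital lobe than in each other lobe in 8 of 8 animals (log2 fold change -1.06, SE 0.06, FDR 1.5e-17). The ventromedial prefrontal cortex was at the top of the neocortex with 65.3 CPM and the posterior superior occipital gyrus at the bottom with 19.9.

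GRM8 (-0.61, SE 0.06) was also lower in the occipital lobe than in every other lobe in 8 of 8 animals, and so was GRM6 (-1.27, SE 0.16), at 0.0925 to 0.525 CPM. GRM3 (-0.42, SE 0.04) was lower in 8 of 8 animals against the frontal, limbic and temporal lobes and in 7 of 8 against the parietal lobe. GRM5 (-0.60, SE 0.13) was lower in 8 of 8 against the frontal and temporal lobes and in 6 of 8 against the limbic lobe. With 54.8% of all genes called in this comparison, a call here is a common event.

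**Figure D5:**
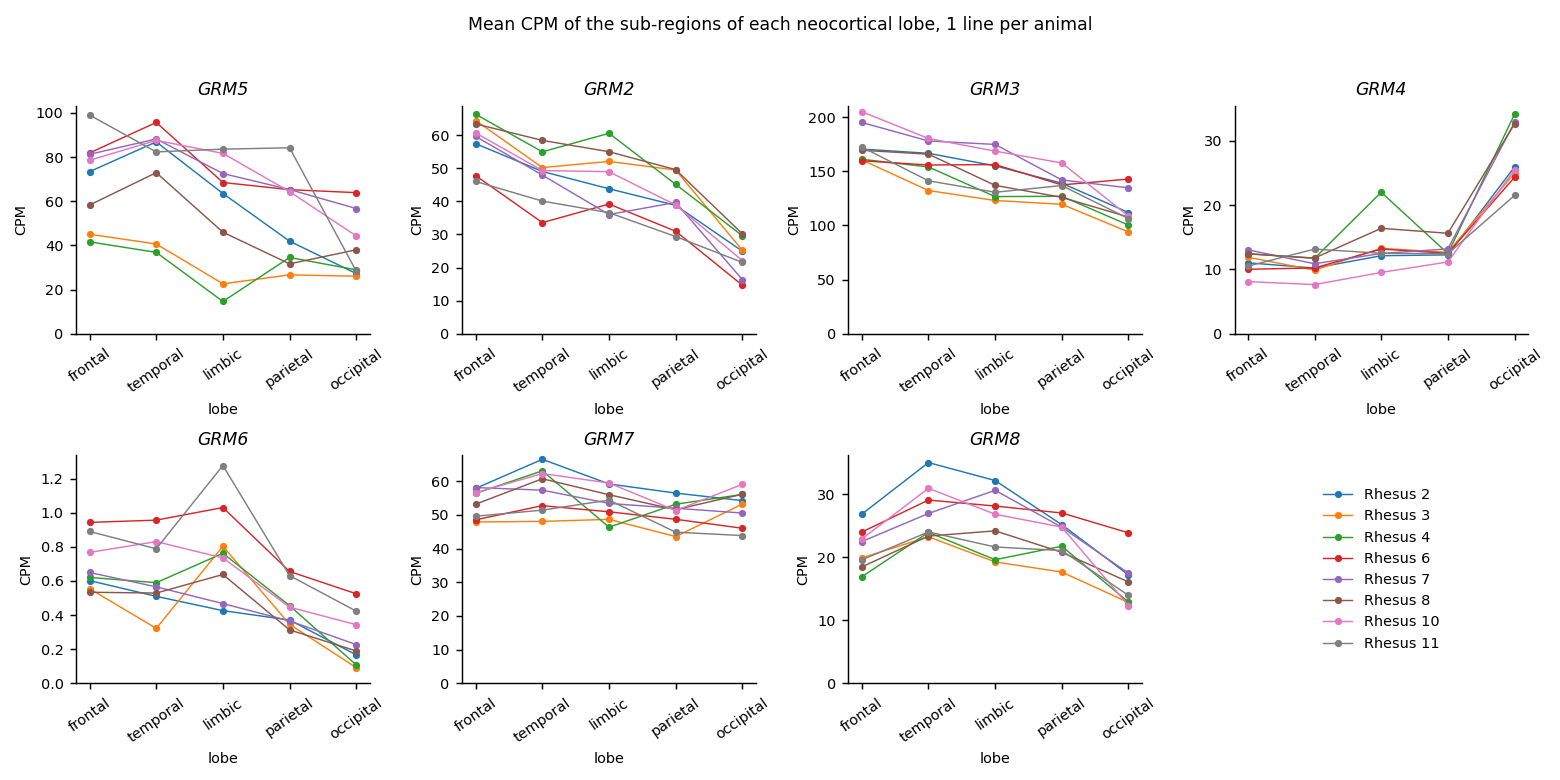
Mean CPM over the sub-regions of each neocortical lobe for the 7 receptor genes, with 1 line per animal and linear axes starting at 0. GRM4 rises in the occipital lobe and GRM2 falls there in all 8 animals, while GRM7 is flat.

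The partners of these receptors were followed through 5 lists, with 40 genes found and 39 tested. Against the neocortex their calls were mostly lower, as for the receptors, with 25 of 39 lower in CC and in PIT, 22 in MO and 21 in GP and VTA. Higher calls were most frequent in CB (7 of 39) and THA (5 of 39). Called in either direction were 74.4% of the 39 in CC, 69.2% in PIT, 59.0% in MO and 46.2% in CB, above the shares of all genes given with the receptors. In AMY 4 were lower and none higher (10.3%, beside 9.79% of all genes), and in PA 4 were lower and 1 higher (12.8%, beside 9.02%), close to those shares.

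Group I effectors and scaffolds gave 14 higher and 63 lower calls among 165 pairs of 11 genes and 15 groups (8.48% and 38.2%, beside 11.9% and 12.7% of all pairs). HOMER3, a scaffold of Purkinje cell spines among others, was higher in CB (log2 fold change 4.29, SE 0.20), where GRM5 was lower, and 6 other groups, whereas HOMER1 was lower in 11 of 15 groups, CB included (-1.18, SE 0.20). The phospholipase gene PLCB4 was higher in PON (2.06) and THA (1.80), and another, PLCB1, gave the largest fall of the list, in PIT (-5.46). ITPR1, a calcium release channel, was the most reduced gene of the list in OB (-3.41), VTA (-3.38) and PON (-3.31), among others.

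Of the Gi/o effectors, 6 pairs were higher and 54 lower among 150 (4.0% and 36%). ADCY5, the adenylyl cyclase of the striatum, was higher in STR (3.24), and the adenylyl cyclase ADCY8 in PON (1.48), THA (1.41) and PA (1.25). In CC the G protein subunit GNAI1 was higher (1.98). KCNJ3, a subunit of G protein-gated potassium channels, was the most reduced gene of the list in GP (-5.35). The largest fall of the list was that of ADCY8 in PIT (-8.675).

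Synaptic partners gave 8 higher and 32 lower calls among 90 pairs (8.89% and 35.6%). ELFN1, a postsynaptic protein that binds group III receptors across the synapse, was lower in 7 groups, with its largest fall in CB (-6.07, SE 0.33), where GRM4 was highest. RGS8 was higher in STR (3.00), THA (3.15), CB (2.82), SN (1.91) and PON. RGS4 was lower in every one of the 15 groups, with the largest fall of the list in CB (-7.45). Among the 5 genes of glutamate uptake, 3 pairs were higher and 25 lower of 75 (4.0% and 33.3%). SLC1A6, the transporter of Purkinje cells, was higher in CB (3.40), SLC1A1 in THA (1.17) and GLUL, glutamine synthetase, in CC (1.03), while SLC1A2 was lower in 11 groups. SLC1A6 also had the largest fall among the uptake genes, in PIT (-9.01).

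In the occipital lobe 7 of the 39 genes were higher and 21 lower (71.8%, beside 54.8% of all genes). HOMER3 was higher (1.37, SE 0.06), and RGS8 (-1.05, SE 0.06) and ELFN1 (-0.83, SE 0.06) were lower. Between caudate and putamen 2 of 37 were higher in the caudate, SHANK1 (1.65) and SHANK2, a share of 5.41% beside 5.36% of all genes. HOMER1 differed by 0.39 (SE 0.13, FDR 0.028) there, under the fold threshold. In the dentate gyrus the 3 lower genes (7.69% of 39, beside 3.63% of all genes) were GNAI1 (-1.17), RGS4 (-1.02) and GPR179 (-1.42).

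Genes with the regional profile most like a receptor were ranked by Pearson r of the mean log2(CPM + 1) over 51 sub-regions, among 12121 genes with a symbol and a mean of at least 1 CPM. For GRM2 they were OLFM1 (r = 0.93), DOC2A (0.92) and GRK2 (0.91), and for GRM3 RAB11FIP4 (0.90), GPM6B (0.89) and ADAP1 (0.87). For GRM4 they were OS9 (0.86), ASPH (0.82) and CDH24 (0.81), and for GRM5 PDGFB (0.91), NCS1 (0.91) and GABRA2 (0.90). DPY19L1, SLBP and LINGO2 followed GRM7 (0.93, 0.92 and 0.92), and SYN3, FSTL4 and NCOA7 followed GRM8 (0.82, 0.75 and 0.75). No receptor was among the 3 genes most like another. The closest members were GRM5 and GRM7 (r = 0.82) and GRM2 and GRM7 (0.74), and GRM4 had an r between -0.01 and 0.22 with the others. The sub-regions share animals and 31 of them are neocortical, so these values are descriptions only.

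Age stage and sex were compared within each region group, 4 animals against 4, with calls at FDR < 0.1 and an absolute log2 fold change above 1. No receptor was called by edgeR for age among 105 pairs tested, beside 0.0153% of 247595 gene and group pairs, and none for sex, beside 0.103%. At an unadjusted p below 0.05 stood 15 pairs for age (14.3%, against 5.73% of all pairs) and 8 for sex (7.62%, against 3.56%). DESeq2 called 1 pair for each, GRM8 in PIT for age and GRM3 in PIT for sex. The age stages did not overlap in 11 of the 105 pairs tested (10.5%, beside 3.87% of all gene and group pairs tested) and the sexes in 4 (3.81%, beside 2.00%). The 105 pairs share the same 8 animals.

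GRM8 in PIT had the lowest FDR for age, 0.15. It lay between 0.657 and 3.05 CPM in the 4 mid-aged animals and between 8.81 and 22.2 in the 4 young ones, with a log2 fold change of -2.70 (SE 0.51). The FDR was 1.9e-05 with DESeq2, 0.0012 without a filter on low counts and 0.068 without Rhesus 7, and from 0.12 to 0.39 under the other alternatives. Markers of the anterior pituitary summed to 44630 to 350600 CPM in the mid-aged and 30270 to 48630 in the young animals. Dopamine neuron markers summed to 496.7 to 556.7 and 214.1 to 332.0 CPM, and neuron markers to 431.9 to 497.5 and 358.6 to 456.5. The stages overlapped in the anterior pituitary and neuron sums and not in the dopamine neuron sum, and the part of these markers in the GRM8 values was not tested.

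Other pairs at an unadjusted p below 0.05 had higher FDRs. In PA GRM5 lay between 96.8 and 144 CPM in the mid-aged and between 50.1 and 98.7 in the young animals (log2 fold change 0.80, SE 0.20, FDR 0.24). In CB GRM4 lay between 526 and 597 CPM in the mid-aged and between 598 and 958 in the young (-0.45, SE 0.14, FDR 0.86), without overlap. The value of 958 CPM was that of Rhesus 4. GRM3 in PIT lay between 0.356 and 1.32 CPM in females and between 0.750 and 4.00 in males (-1.71, SE 0.58, FDR 0.22).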

How the data were processed

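The deposited values used here are raw gene counts, whole numbers that the authors had not normalized. By the methods, the authors removed ribosomal RNA, made libraries with a directional kit, checked reads with FastQC 0.11.4, trimmed samples of poor read quality with Trim Galore 0.4.4, mapped with HISAT2 2.0.5 to the Mmul 8.0.1 genome with Ensembl annotation, and counted with HTSeq 0.6.1. How strand and overlaps were handled in counting is not given in the sources used here, so reads of overlapping or antisense genes cannot be assigned with certainty. Symbols of 17572 genes came from a reference table. The members and lists were chosen with earlier results of these data known.

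Counts of region groups and lobes were summed within each animal and tested in R 4.3.3 with edgeR 4.0.16 (TMM, filterByExpr, quasi-likelihood F test, Benjamini-Hochberg over all genes tested), with the animal as a block as in the study's model. Same-numbered samples come from the same animal. Age stage and sex were tested in each region group with the other as a covariate. Every receptor is named, with 6 preset partner genes, some of the largest changes of each partner list and the 3 most similar genes per receptor. SCN8A was chosen after its values were seen. Some genes of the partner lists are not reported here and are left out of the counts. The test recovered 200 of 200 changed genes on simulated data for each of 3 comparisons. Its power at the spread seen between these animals, and for age stage and sex, was not tested. CPM for levels of a group use its summed counts. Alternatives were DESeq2 1.42.0 or its size factors, other filters, no block, another fold threshold and each animal left out. Fits without the 3 doubtful libraries were added after seeing the data. Depth was 7784678 to 31083490 counts per sample. Assembled transcripts, 8 midbrain samples and 33 ATAC-seq samples were not analysed here.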

Additional observations from a re-analysis of the deposited data

Results flagged for a closer look

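In 8 of 112 sets of a receptor and a region group, 1 animal lay far from the other 7 by the gap test of Dixon, which flags about 1 in 20 groups by chance. GRM2 was at 34.4 CPM in the hypothalamus of Rhesus 6, with the next animal at 11.2, and GRM4 at 13.2 CPM in the globus pallidus of Rhesus 3, with the next at 5.54. Markers of cortical excitatory neurons were raised in that hypothalamus library, and markers of medium spiny neurons in that globus pallidus library. GRM2 was at 2.21 CPM in the pituitary of Rhesus 11, with the next animal at 1.13. GRM6 was at 0.371 CPM in the cerebellum of Rhesus 11 and at 1.66 CPM in the pons of Rhesus 2, on few reads. GRM7 was at 9.78 CPM in the cerebellum of Rhesus 4, below the next lowest at 12.4. GRM8 was at 3.86 CPM in the corpus callosum and at 5.98 CPM in the hippocampus of Rhesus 8, with the next animals at 2.84 and 4.23.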

How the results depend on the processing

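Of 1990 single values, 1965 kept their side of the threshold, 13 lost it and 12 gained it. No direction reversed where the main fit or the alternative gave a call. Sign changes between uncalled values were not counted. Of 65 called contrasts of a receptor between regions, 63 passed under all alternatives run. The exceptions were GRM2 in the amygdala and in the pons, which fell just under the fold threshold in 5 and 8 alternatives. The 57 calls against the neocortex became 55 with DESeq2 and 57 without the 3 doubtful libraries, and 55 to 59 when 1 animal was left out. With no replicate block for the animal, the pairing was ignored. That fit gave 56 calls against the neocortex, 2 enriched members and 6 calls for the occipital lobe. It gave 1 call for the dentate gyrus, 1 for caudate against putamen and 0 for the other 3 contrasts. Pairing thus changed the call of GRM2 in the pons alone (log2 fold change -0.98 without the block). Enriched members rose from 2 to 4 with a fold above 1.5 and to 3 without the doubtful libraries (GRM6 in the hypothalamus, 2.01-fold), and ranged from 2 to 3 when 1 animal was left out. Left-out animals gave 0 to 1 calls for the accumbens, 0 to 3 for age and 0 to 2 for sex. For age and for sex DESeq2 gave 1 call each, and so did the fit with no filter on low counts. In those fits the called pairs were GRM8 in the pituitary for age and GRM3 in the pituitary for sex, and without Rhesus 7 also GRM5 in PA (1.03) and in the thalamus (1.19) for age and GRM7 in the pituitary (-1.37) for sex. Counting error limits GRM6, with a median of 6 reads per library.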
